A study of Mus musculus with 6 samples.

Results

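The transcription factor genes Sox2, Sox21, Sox4, Sox11 and Sox12 were examined in the molar region of the mouse embryo, as 5 of the 19057 genes that the arrays measured. They and the gene lists below were chosen by name, with earlier results of these data known. All 5 genes were found, with 15 probes among the 34885 probes that carry 1 gene symbol. RNA came from the lower jaw of embryos of the outbred CD-1 mouse stock at day 13.5 of gestation, when the lower molar is an epithelial bud in condensing mesenchyme. Each of 3 litters gave 1 library titled tooth germ and 1 titled oral tissue, both pooled over several embryos, and neither group carries a transgene, mutation or treatment in the labels. The 6 libraries were hybridised to 1-colour Illumina bead arrays, so n = 3 per group, and precision is set by this small number of arrays.

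The labels contradict each other. Titles and descriptions name one set of 3 libraries tooth germ, while the source name and tissue fields give the molar bud to the other set and call the first set mandibular tissue without tooth or bone. The libraries are named here by title, also where the text says tooth germ library or oral library, and every sign below turns if the other fields are right. In the libraries titled tooth germ, 5 of 8 marker genes of dental and arch mesenchyme and 5 of 8 of surface epithelium were called higher and 8 of 9 of skeletal muscle were called lower. Over all genes 2.39% were called higher and 3.42% lower (adjusted p under 0.05, limma). The mean signal of the 9 muscle markers was 10.63 to 11.23 in titled oral tissue and 9.21 to 9.43 in titled tooth germ. All values are the deposited log2-scale signals, which run from 6.61 to 14.88 with a median of 7.01, and a difference always means titled tooth germ minus titled oral tissue. Signals near the median may be close to background, and differences there may be understated. Pearson's r over all probes was 0.995 to 0.997 within a group and 0.988 to 0.993 across groups.

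Sox proteins bind DNA through an HMG box, a domain that bends the double helix, and are sorted into subgroups by its sequence. Sox2 belongs to subgroup B1, which activates transcription and keeps progenitor cells undifferentiated; in the mouth it is made by oral epithelium, dental lamina and the epithelial stem cells of the growing incisor. Sox21 is a B2 member, a repressor that can oppose B1 factors and that is also made in oral and dental epithelium. Sox4, Sox11 and Sox12 form subgroup C, are widely made in embryonic mesenchyme and in newly born neurons, and support the survival of progenitors. In tissue pieces such as these, fewer cells of a type and less RNA per cell cannot be told apart.

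The upstream sequence is shown first for Sox2, the one gene of the 5 that passed the main test, and for Sox4 and Sox12, subgroup C genes whose upstream windows differ in motif matches and base composition. Each sequence holds the 250 bases before the RefSeq gene start in GRCm38.p6, written 5′ to 3′ on the gene's strand, and capitals mark matches to the motifs searched. Sox2 lies on the plus strand at chr3:34649745-34649994, Sox4 on the minus strand at chr13:28953700-28953949 and Sox12 on the minus strand at chr2:152398047-152398296.
Sox2: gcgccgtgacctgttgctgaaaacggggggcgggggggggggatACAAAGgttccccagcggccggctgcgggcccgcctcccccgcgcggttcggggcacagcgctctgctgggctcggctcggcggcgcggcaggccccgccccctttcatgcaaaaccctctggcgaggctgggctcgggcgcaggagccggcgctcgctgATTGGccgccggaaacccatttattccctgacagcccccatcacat
Sox4: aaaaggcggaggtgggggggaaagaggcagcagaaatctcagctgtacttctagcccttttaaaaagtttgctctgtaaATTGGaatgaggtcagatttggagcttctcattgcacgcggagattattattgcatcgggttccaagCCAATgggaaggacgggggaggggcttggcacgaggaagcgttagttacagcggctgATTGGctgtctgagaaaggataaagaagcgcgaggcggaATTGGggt
Sox12: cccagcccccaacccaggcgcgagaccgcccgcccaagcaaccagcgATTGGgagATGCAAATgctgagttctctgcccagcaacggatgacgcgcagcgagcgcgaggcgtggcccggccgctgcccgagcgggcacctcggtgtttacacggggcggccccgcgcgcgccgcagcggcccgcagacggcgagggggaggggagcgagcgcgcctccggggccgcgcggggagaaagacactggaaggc

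Upstream sequences were matched for 5 of the 5 genes and set against 32841 promoter windows of the same length. The motifs were the Sox core ACAAAG or ACAATG, the CCAAT box, the POU octamer ATTTGCAT and the TATA box TATAAA, each on both strands; none of these motifs contains another. Sox2 had 1 match to ACAAAG, 206 to 201 bases upstream of its start, and either Sox core was found in 25.2% of all windows. No Sox core was matched in the windows of the other 4 genes. CCAAT was matched in 4 of the 5 windows, all but that of Sox21, against 33.9% of all windows. Sox4 had 4 CCAAT matches, a number reached or passed by 0.840% of all windows, and Sox2, Sox11 and Sox12 had 1 each. In Sox2, Sox4 and Sox11 a CCAAT match on the reverse strand began 46, 47 and 60 bases upstream of the start. Sox12 had the 1 octamer match, which 1.60% of windows share, and TATAAA was matched in 0 of the 5. The windows of Sox12 and Sox2 were rich in G and C (74.4% and 72.0%), that of Sox4 was not (50.8%, with a median of 52.4% over all windows). These matches describe the letters only.

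Sox2 was higher in the libraries titled tooth germ. Its brightest probe read 7.36, 7.53 and 7.48 in the oral libraries of litters 1, 2 and 3 and 7.91, 7.97 and 8.15 in the tooth germ libraries. All 3 tooth germ libraries lay above all 3 oral libraries. The difference was 0.55 on the log2 scale (SE 0.078, 95% interval 0.38 to 0.72), or 1.47-fold, with an adjusted p = 0.0012 by limma over all genes. The differences within litters 1, 2 and 3 were 0.55, 0.45 and 0.66, so litter 2 had the smallest and litter 3 the largest. Of all genes 5.81% were called at this threshold, an adjusted p under 0.05, and 2.39% were called higher, against 1 of the 5 genes here.

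The second Sox2 probe gave the same order of the groups at a lower signal. It read 6.88, 6.98 and 7.00 in the oral libraries and 7.15, 7.27 and 7.19 in the tooth germ libraries. The oral values lay below the median of all probes (7.01), so they may be close to background. The groups again did not overlap. Tested as a row of its own, this probe differed by 0.25 (SE 0.047, adjusted p = 0.0079 by limma over all probes), where 4.18% of all probes were called. The 2 probes correlated at r = 0.934 over the 6 arrays, which share the difference between the groups.

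**Figure D1:**
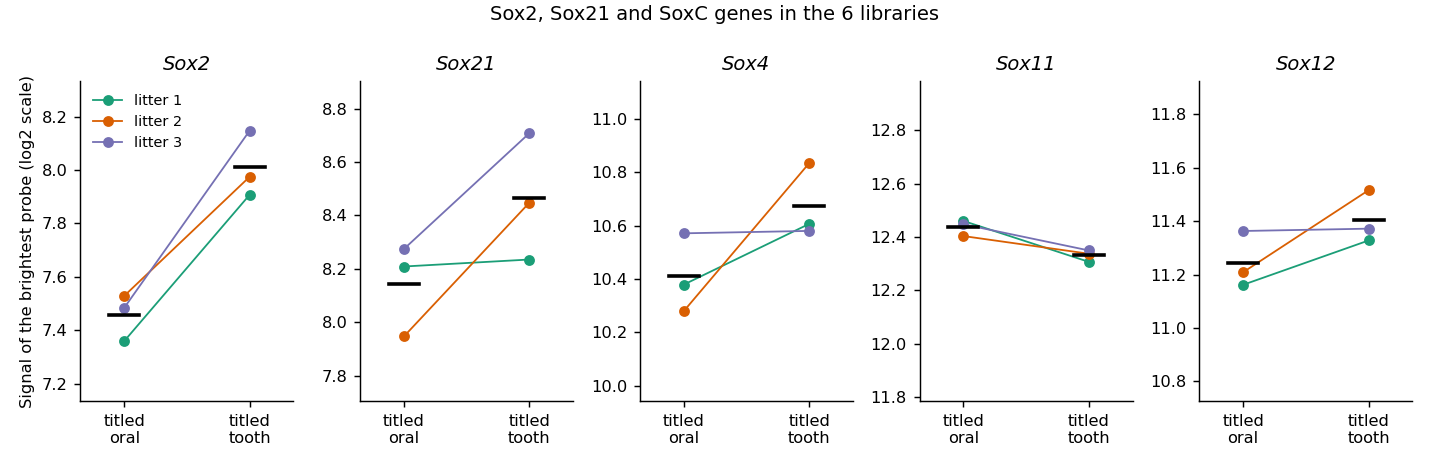
Signal of the brightest probe of each gene (log2 scale, an equal span of 1.2 units per panel) in the 3 libraries titled oral tissue and the 3 titled tooth germ, with lines joining libraries of one litter and black bars at the group means (n = 3). The lines of Sox2 climb by 0.45 to 0.66, those of Sox21 by 0.026 to 0.50, those of Sox4 by 0.0091 to 0.55 and those of Sox12 by 0.0087 to 0.31, while those of Sox11 change by -0.15 to -0.066.

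Sox21 did not pass the main test, and its litters differed. It read 8.21, 7.95 and 8.27 in the oral libraries and 8.23, 8.45 and 8.71 in the tooth germ libraries. The groups overlapped, because tooth germ library 1 lay below oral library 3. The mean was 8.14 ± 0.17 in titled oral tissue and 8.46 ± 0.24 in titled tooth germ (SD, n = 3), a difference of 0.32 with a 95% interval of 0.057 to 0.58 (SE 0.12, adjusted p = 0.179, limma). Litter 1 differed by 0.026, whereas litters 2 and 3 differed by 0.50 and 0.43. With litter as a block Sox21 was called (limma, SE 0.089, adjusted p = 0.0464), and in that fit 8.88% of all genes were called and 3.86% were called higher. Without the litter 1 pair the difference was 0.47 (adjusted p = 0.133). Without tooth germ library 3 it fell to 0.20 (adjusted p = 0.440), without both libraries of litter 2 it was 0.23 (adjusted p = 0.521), and without oral library 2 it was 0.22 (adjusted p = 0.419).

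The other Sox21 probes carried little signal. Their means over the 6 arrays were 7.00 and 6.79, below the median of all probes. They differed by 0.077 (95% interval -0.0015 to 0.16) and -0.033 (-0.092 to 0.026), and neither was called.

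The SoxC genes did not pass the test in either direction. Sox4 read 10.38, 10.28 and 10.57 in the oral libraries and 10.61, 10.83 and 10.58 in the tooth germ libraries. The groups did not overlap, but oral library 3 and tooth germ library 3 were almost equal. The difference was 0.26 (SE 0.10, 95% interval 0.044 to 0.48, adjusted p = 0.185, limma). It came to 0.23 in litter 1, 0.55 in litter 2 and 0.0091 in litter 3. Without both libraries of litter 2 it was 0.12 (adjusted p = 0.686). The dimmer Sox4 probe, with a mean of 7.44, differed by -0.0012 (95% interval -0.14 to 0.14).

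Sox12 had the pattern of Sox4 at smaller size. It read 11.16, 11.21 and 11.36 in the oral libraries and 11.33, 11.52 and 11.37 in the tooth germ libraries. Oral library 3 lay above tooth germ library 1, so the groups overlapped. The difference was 0.16 (SE 0.085, 95% interval -0.025 to 0.35, adjusted p = 0.377, limma), and within the litters it was 0.17, 0.31 and 0.0087. Without both libraries of litter 2 it was 0.087 (adjusted p = 0.779). Its other 3 probes differed by -0.032, 0.050 and 0.0024, and none was called. In both Sox4 and Sox12 oral library 3 and tooth germ library 2 stood highest in their groups. Deviations from the group means correlated at r = 0.893 between these genes over the 6 arrays. Of the 10 pairs among the 5 genes, Sox21 and Sox11 had a like value of 0.896, and the other 8 pairs lay between -0.22 and 0.46. These values are descriptions, because the arrays share litters and normalization.

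Sox11 was the member whose level differed least between the groups, and the sign was the opposite. It read 12.46, 12.40 and 12.45 in the oral libraries and 12.31, 12.34 and 12.35 in the tooth germ libraries. The groups did not overlap, with SDs of 0.030 and 0.022 (n = 3). The difference was -0.11 (SE 0.063, adjusted p = 0.447, limma), with a 95% interval of -0.24 to 0.033. It was -0.15, -0.066 and -0.098 in litters 1, 2 and 3. The limma standard error exceeds what these SDs alone give, since the variance of each gene is moderated towards that of genes of like signal. A second bright Sox11 probe, with a mean of 10.36, read 10.29, 10.34 and 10.47 against 10.23, 10.50 and 10.32, a difference of -0.020 (95% interval -0.23 to 0.19). There the groups overlapped. The remaining 2 Sox11 probes had means of 6.99 and 6.95 and differed by -0.0054 and -0.047.

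Counted together, 3 of the 5 genes had groups that did not overlap (Sox2, Sox4 and Sox11), where 23.1% of all genes had such groups. The sign was the same in all 3 litters for 5 of the 5, where 41.4% of all genes had this. In Sox4 and Sox12 this rests on differences of only 0.0091 and 0.0087 in litter 3, and in Sox21 on 0.026 in litter 1. Of the 10 dimmer probes 1 was called, that of Sox2, and no probe of the other 4 genes was called in the fit over all probes.

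**Figure D2:**
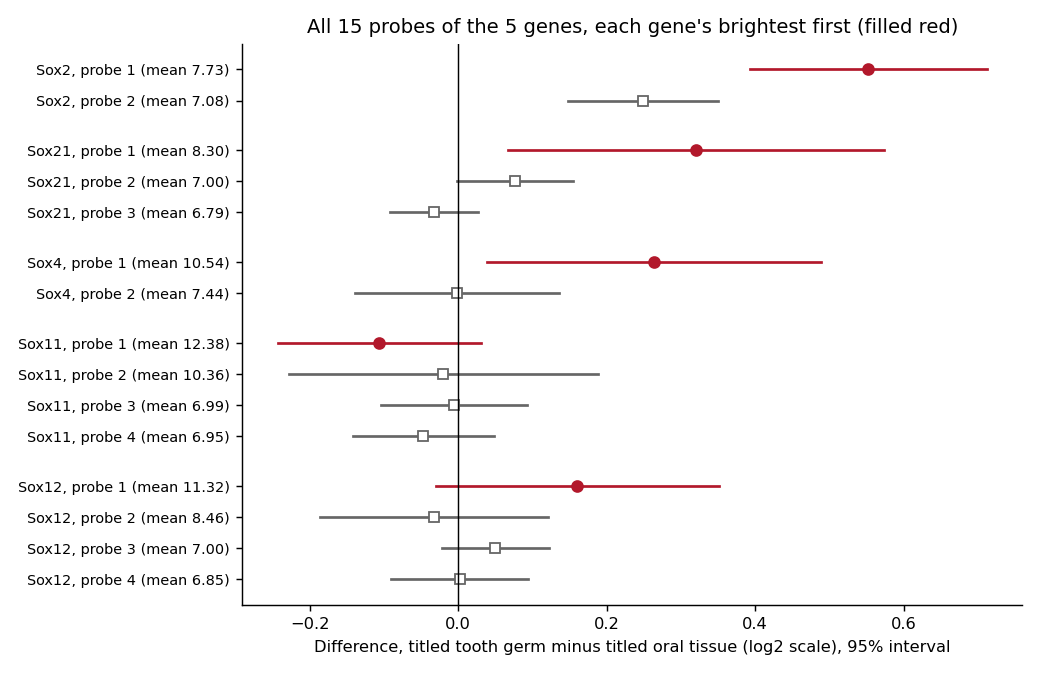
Difference of each of the 15 probes, titled tooth germ minus titled oral tissue (log2 scale), with its 95% interval from limma over all probes (n = 3 per group); filled red marks the brightest probe of a gene. Both Sox2 probes lie right of 0, at 0.55 and 0.25, and the dimmer probes of the other genes lie between -0.047 and 0.077.

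In the rest of the Sox family no gene rose and 2 fell. All 15 other members were on the array, 5 of them with a mean below the median of all probes. None was higher at an unadjusted p under 0.05 and 3 were lower (limma). The median difference of the 15 was -0.015, against 0.0026 over all genes, of which 3.42% were called lower. Both that fell belong to subgroup E, which specifies neural crest, glia and cartilage. Sox10, a factor of neural crest cells and glia, read 9.30, 8.78 and 9.68 in the oral libraries and 8.06, 8.03 and 8.10 in the tooth germ libraries, a difference of -1.19 (SE 0.17, adjusted p = 0.0012, limma). Oral library 2 was the lowest of its group but stayed above every tooth germ library. Sox8, its close relative, read 7.85, 7.87 and 7.82 against 7.38, 7.45 and 7.40, a difference of -0.44 (SE 0.058, adjusted p = 7.6e-04, limma). A dimmer Sox8 probe differed by -0.075 and was not called.

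The relatives nearest to the described genes gave little signal or no call. Sox1 and Sox3, the other B1 genes, had means of 6.94 and 6.85 and differed by 0.014 and 0.019. Sox14, the other B2 gene, had a mean of 7.07 and differed by 0.058. Sox9, the E member that drives cartilage formation, differed by -0.19 (adjusted p = 0.482), with tooth germ library 2 at 10.48 and the other 5 libraries between 10.79 and 11.09. The endothelial subgroup F genes Sox7, Sox17 and Sox18 differed by -0.17, -0.16 and -0.11, and none was called. Of 5 other endothelial markers 1 fell, where 3.42% of all genes were called lower. It was the receptor kinase gene Tek, lower by 0.33 (adjusted p = 0.0268, limma), a call lost in 8 of 20 alternatives.

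**Figure D3:**
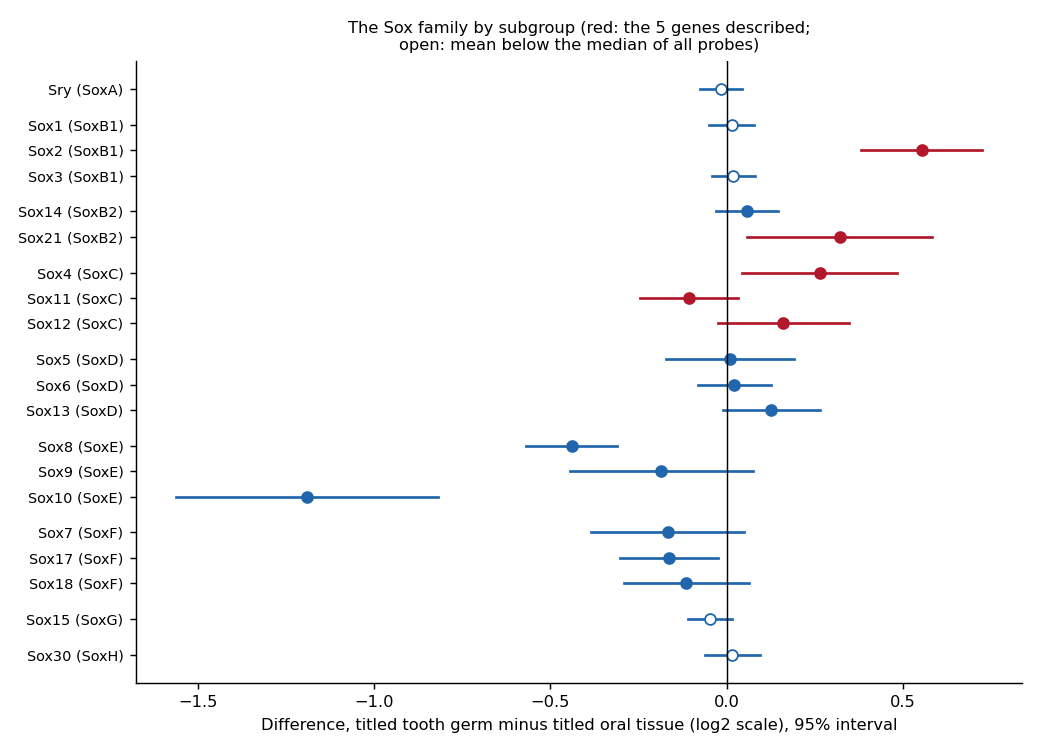
Differences of the 20 Sox family genes by subgroup, titled tooth germ minus titled oral tissue (log2 scale), with 95% intervals (n = 3 per group); red marks the 5 genes described and open points a mean below the median of all probes. Sox2 at 0.55 lies farthest to the right and Sox10 at -1.19 farthest to the left.

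Genes that regulate or accompany Sox2 in dental and oral epithelium were mostly higher where they were called. Of 16 listed, 14 could be measured, of which 6 rose, 1 fell and 7 were not called (median 0.19, against 0.0026 over all genes). Over all genes 2.39% were called higher and 3.42% lower. Trp63, a regulator of stratified epithelium, rose by 1.01 (SE 0.087) and Sp6, an enamel organ factor, by 0.89 (SE 0.076). Shh, the hedgehog ligand of dental epithelium, rose by 0.78 (SE 0.12), and Lef1, a Wnt pathway factor, by 0.39 (SE 0.10, adjusted p = 0.0483, limma). Fgf8 and Foxi3, an FGF ligand and a forkhead factor of the early tooth epithelium, rose by 0.20 and 0.19 from signals near the median of all probes. The calls of Lef1 and Foxi3 were lost in 11 and 9 of 20 alternative analyses. In the fit over all probes a second probe of Sp6 (0.86) and of Shh (0.26) was also called. The dimmer probes of Lef1 (0.093, -0.018 and 0.032), Fgf8 (0.039) and Trp63 (0.063) were not called, nor was the dimmest of Sp6 (0.11). The gene that fell was Isl1, by 1.45 (SE 0.27, adjusted p = 0.0073, limma), which is made in motor and sensory neurons besides incisor epithelium. It read 9.63, 8.54 and 8.17 in the oral libraries and 7.26, 7.50 and 7.23 in the tooth germ libraries. Lgr5, a Wnt pathway receptor of epithelial stem cells, differed by 0.28, Bmi1, a Polycomb gene of stem cells, by 0.11 and Lrig1, a growth factor receptor inhibitor, by -0.17, and none of these was called. Without both libraries of litter 1, 4 members of this list were called, 3 of them higher.

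In both epithelium and mesenchyme 5 of 8 markers were called higher, as Sox2 was, against 2.39% of all genes. The mean over the 8 epithelial markers was 9.72 to 9.82 in titled oral tissue and 10.12 to 10.24 in titled tooth germ, so the groups did not overlap. The mean over the 8 mesenchyme markers was 9.48 to 9.87 against 10.26 to 10.44, again without overlap, and their median difference was 0.63. Among these mesenchyme markers Pax9 (0.14), Barx1 (0.35) and Twist1 (-0.25) were not called. Twist1 was lower in every litter, without overlap of the groups. The call of Lhx6 was lost in 8 of 20 alternatives. Of the 8 epithelial markers 5 rose, Krt15, a basal cell keratin, fell by 0.39 (adjusted p = 0.0464, limma, a call lost in 13 of 20 alternatives), and Epcam and Cdh1 were not called (median 0.50). Krt14, a keratin of basal epithelial cells, rose by 0.56 (SE 0.069), close to the 0.55 of Sox2, and Krt5, its partner, by 0.43 (SE 0.092). The calls of Krt5 and Krt8 were each lost in 5 of 20 alternatives and that of Krt18 in 9. Trp63, which rose by 1.01, is counted both here and among the Sox2 partners above, so the 2 lists are not separate. Cdh1, the epithelial cadherin, differed by 0.097 (SE 0.095), and the Epcam probe had a mean of 6.76, below the median of all probes. The part of the shares of epithelium and mesenchyme in the Sox2 difference was not tested.

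Genes reported as targets of SoxC factors did not move together, and 2 of the 7 had means below the median of all probes. Of 7 measured, 0 rose, 1 fell and 6 were not called, against 2.39% of all genes called higher and 3.42% lower. At an unadjusted p under 0.05, 1 of the 7 was higher and 2 were lower (limma, median -0.049). Tead2, a Hippo pathway factor downstream of SoxC proteins in mesenchyme, read 11.93, 11.94 and 11.95 in the oral libraries and 11.83, 11.79 and 11.86 in the tooth germ libraries (difference -0.11, adjusted p = 0.447, limma). Like Sox11, it was slightly lower in titled tooth germ without overlap and without a call, but 23.1% of all genes had groups without overlap. Nrcam, another listed target, also differed by -0.16 without overlap and without a call. Ezh2, a Polycomb methyltransferase, did not overlap in the other direction. It differed by 0.31 (adjusted p = 0.0924, limma), and was called with litter as a block (adjusted p = 0.0160, limma). Dcx, a microtubule protein of young neurons, fell by 0.64 (SE 0.15, adjusted p = 0.0301, limma). It read 9.04, 8.23 and 8.65 against 7.99, 7.98 and 8.03, and a second bright Dcx probe differed by -0.66. The dim Dcx probes, with means of 6.88 and 6.76, differed by 0.0016 and 0.014. The Dcx call was lost in 10 of 20 alternatives, among them those without oral library 1 or 3 or any 1 tooth germ library. Tubb3, the tubulin of neurons, had a mean of 7.00 and differed by -0.049.

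Of 8 neuron markers 2 fell and 6 were not called, and 5 fell with litter as a block. Of all 19057 genes 3.42% were called lower, and with the block 957 genes were. The mean of the 8 neuron markers was 8.24, 7.62 and 7.93 in titled oral tissue of litters 1, 2 and 3. In titled tooth germ it was 7.30 to 7.39. Gap43, an axon growth gene, fell by 1.10 and Nefm, a neurofilament gene, by 1.19, while Nefl and Snap25, from signals below the median of all probes, differed by -0.018 and 0.030. Oral library 1 was the highest and oral library 2 the lowest of its group, the order that Dcx also had. Among the oral libraries, the second bright probe of Sox11 was lowest in library 1 (10.29), whereas the brightest probe was highest there (12.46). Among 5 measured glia markers Sox10 alone was called, and the other 4 had means below the median of all probes. The part of neurons and glia in the differences of Sox11, Dcx and Sox10 was not tested.

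**Figure D4:**
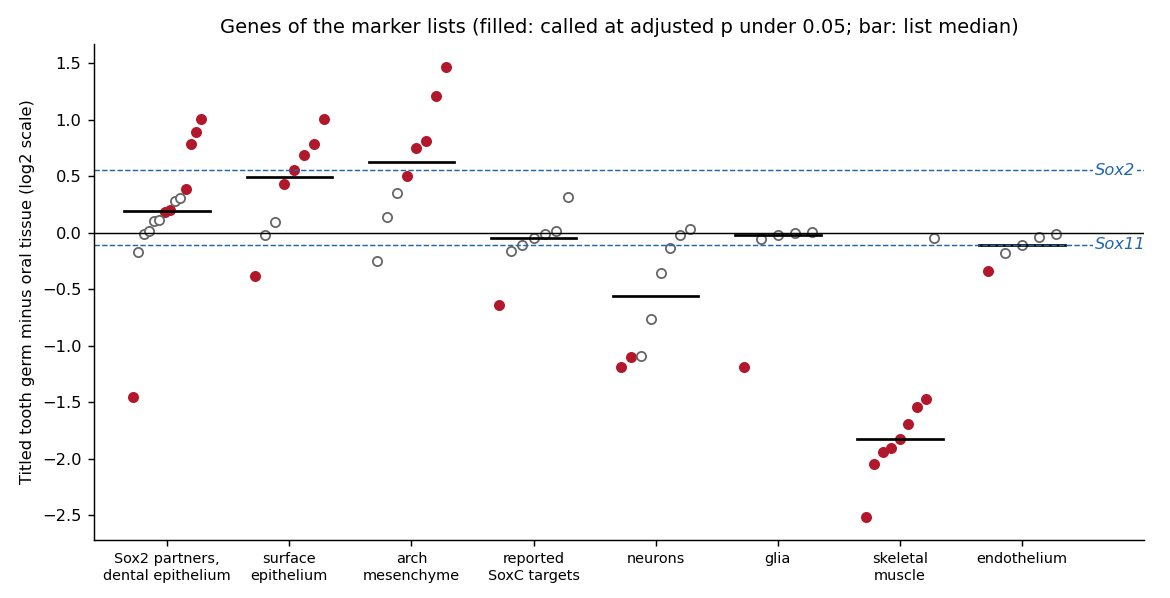
Difference of each measured gene of 8 lists, titled tooth germ minus titled oral tissue (log2 scale); filled points were called at an adjusted p under 0.05 (limma, n = 3 per group), bars are list medians and dashed lines mark Sox2 and Sox11. The medians of epithelium (0.50) and mesenchyme (0.63) lie on either side of Sox2 at 0.55, and muscle has the lowest median, -1.82.

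The genes whose values over the 6 arrays were most like those of each member were named among 1586 genes that spanned at least 0.5, were brighter than the median gene and had no clone or predicted name. For Sox2 these were Foxe1, a forkhead factor of oral and thyroid epithelium (r = 0.996), the DNA repair gene Ung (0.995) and Cpsf4l (0.994). Foxe1 differed by 0.69 between the groups. For Sox21 they were Hes1, a Notch target (0.953), the tetraspanin gene Cd151 (0.951) and Fermt1, an integrin adaptor of epithelium (0.950). For Sox4 they were Pnpla3 (0.958), Mfsd2a (0.943) and Itga6, an integrin of basal epithelial cells (0.941), and for Sox12 Smc2, a condensin subunit (0.973), Itga6 (0.972) and Socs2, an inhibitor of cytokine signalling (0.970). For Sox11 they were Gpr85 (0.995), Tmem108 (0.994) and Tubb2b, a tubulin of developing neurons (0.993). They differed by -0.64, -0.65 and -0.60 between the groups, against -0.11 for Sox11, whose own values ran only from 12.31 to 12.46. A gene with so small a span could not enter this list, so the larger differences were set by the filter of 0.5. With 6 arrays in 2 groups the values of r for Sox2 and Sox11 largely restate the group difference. For Sox21, Sox4 and Sox12 the arrays of a group also differed among themselves, so their values of r reflect both. Smc2, the gene most like Sox12, differed by 0.23 between the groups and was not called (adjusted p = 0.407, limma).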

How the data were processed

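RNA of 6 libraries was measured on Illumina bead arrays, 1 array per library. The authors deposited log2-scale signals per probe, made with lumi 2.8.0 per the submitters' processing notes; whether the scale is plain log2 or variance-stabilised, and the background correction, are not given in the sources used here. Sorted columns differed by at most 0.000827, so the deposited table was already quantile normalized. Probes were named from the platform annotation (34885 with 1 symbol, 18 with several, 10378 with none of 45281), and the brightest probe was kept for each of 19057 genes. Groups followed the titles. limma 3.58.1 in R 4.3.3 (lmFit, eBayes with trend) compared them, with Benjamini-Hochberg adjustment over all genes, and was tested on simulated data. Libraries of a number share a litter per the labels, and their deviations correlated at 0.413, 0.233 and 0.266; the block was an alternative. Named genes were the 5 members, the fixed lists and the 3 most correlated genes per member. Members and lists were chosen with earlier results of these data known. A few listed genes are not reported here. Promoter sequences are RefSeq's (GRCm38.p6).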

Additional observations from a re-analysis of the deposited data

How the results depend on the processing

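The differences of Sox2, Sox4, Sox11 and Sox12 kept their direction and their side of the threshold in all 20 alternatives (litter as block or random effect, 3 normalizations, a filter on dim genes, 2 probe rules, 3 variance or weight settings, and leaving out each library or litter). Not all of these could move the direction. Centring each array on its median left these differences and their adjusted p as they were. Litter as block or random effect, no variance trend and robust shrinkage left the differences themselves unchanged. So did the filter on dim genes and the rule of each probe as its own row. All of these could alter only the standard error and the call. Sox2 ranged from 0.40 (mean of its probes) to 0.61, with adjusted p of 1.7e-04 to 0.0131. With litter as a replicate block Sox21 was called (0.32, adjusted p = 0.0464), as in none of the other 19 alternatives, where its adjusted p reached 0.521; the block changed no other member's call. Averaging all probes of a gene gave 0.12 for Sox21, 0.13 for Sox4, -0.045 for Sox11 and 0.045 for Sox12. With libraries or litters left out, the differences ranged over 0.48 to 0.61 for Sox2, 0.20 to 0.47 for Sox21, 0.12 to 0.39 for Sox4, -0.13 to -0.082 for Sox11 and 0.087 to 0.24 for Sox12.

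Over all genes 1107 were called, 1693 with the block, and 549 to 1025 with libraries or litters left out (549 without litter 1, 668 without litter 3, 734 without tooth germ library 2). The count of other Sox genes was 2 throughout. Of the Sox2 list 7 were called, 4 without a variance trend and 4 to 6 with libraries or litters left out. Of the SoxC target list 1 was called, 2 with litter as block or random effect, 0 with mean probes, without a trend or with robust shrinkage (1, 4 and 3 at an unadjusted p under 0.05, limma), and 0 to 1 with libraries or litters left out. The cause was not tested. Detection values were not used, so dim probes have no background to be set against.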
